A study of Equus caballus with 19 samples.

Results

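Tendon cells hold on to their matrix through integrins, and the genes described here encode the integrin subunits that bind collagen, fibronectin and other matrix proteins. They were chosen by gene name, as the collagen-binding α subunits ITGA1, ITGA2, ITGA10 and ITGA11, the α subunits ITGA5 and ITGAV, and the β subunits ITGB1, ITGB3, ITGB5 and ITGB8. These 10 genes are among 29196 gene names in the deposited tables, and the rule used names only. All 10 passed the filter on low values in both batches.

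An integrin is a pair of one α and one β subunit that spans the cell membrane, with matrix on the outside and the actin cytoskeleton, joined through talin, kindlin and other adaptors, on the inside. The products of ITGA1, ITGA2, ITGA10 and ITGA11 each pair with the ITGB1 product to bind collagen. The ITGA5 product pairs with the ITGB1 product to bind fibronectin, and the ITGAV product pairs with several β subunits, including those of ITGB1, ITGB3, ITGB5 and ITGB8, to bind ligands such as vitronectin, fibronectin and latent TGF-β. Fibroblasts and tenocytes in a collagen gel use such receptors to grip and contract it.

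The cultures were wild type tenocytes from the superficial digital flexor tendon of adult Thoroughbred horses, passaged in culture and seeded in 3D gels of bovine type I collagen, so every group grew on a collagen ligand. In the first batch, 5 lines (numbered 1 to 5 here) were kept as an unstimulated control or with 1 nM IL-1β. In the second batch, 3 further lines (6 to 8) were kept as control, with 1 nM IL-1β, or with 1 nM IL-1β and 100 ng/ml of the IL1 receptor antagonist protein IL1Ra (IL-1β + IL1Ra). RNA was taken from all 19 cultures at day 14. A line is a donor, so n counts donors, and each line gave 1 library per condition. There was no IL1Ra-alone library among these samples. The comparisons ask which integrin genes differ when tenocytes in a gel are exposed to IL-1β, and whether they stay different when IL1Ra is added.

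Values are DESeq2-normalised counts, gene reads divided by a size factor per library, and they summed to between 43393903 and 49197980 per library for lines 1 to 5, and between 24964149 and 34602014 for lines 6 to 8. The batches were normalised separately and are described separately. Of 10 tenocyte markers, COL1A1, COL1A2, DCN and LUM were high in every library (from 18227 normalised counts upwards), whereas the tendon gene TNMD was at 0 in the first batch and at or under 1.00 in the second, and SCX ran from 9.69 to 4720.0. Of 9 leukocyte markers, PTPRC stayed at or under 6.46, ITGB2 at or under 3.87 and CSF1R at or under 2.11 in every library, and CD79A was at 0, whereas CD14 reached 2811 and CD68 reached 1769. The 7 endothelial markers summed to 22.4 to 92.0 normalised counts in lines 1 to 5 and 53.4 to 239.9 in lines 6 to 8. Among them CDH5 and KDR stayed at or under 4.82, PECAM1 reached 73.2, and EMCN ran from 20.7 to 191 in the second batch and stayed at or under 1.08 in the first. In bulk RNA, fewer cells of a type and less RNA per cell cannot be told apart.

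In the first batch, IL-1β moved 2 of the 10 integrin genes, in opposite directions. ITGA11, which encodes a collagen-binding α subunit, fell in every line to a small fraction of its control level, and ITGB8, which encodes the β subunit that holds latent TGF-β with αV, rose in every line by 9.62-fold or more. The shared β subunit gene ITGB1 stayed within the spread between lines. DE (differentially expressed) means here a limma adjusted p under 0.05, over 14719 genes tested, together with a log2-fold change of 1 or more in either direction. The DE rule was met by 12.8% of all genes tested (4.91% higher and 7.9% lower with IL-1β), against 1 integrin gene higher and 1 lower. The median log2-fold change was −0.12 over the 10 genes and −0.0034 over all genes tested.

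**Figure D1:**
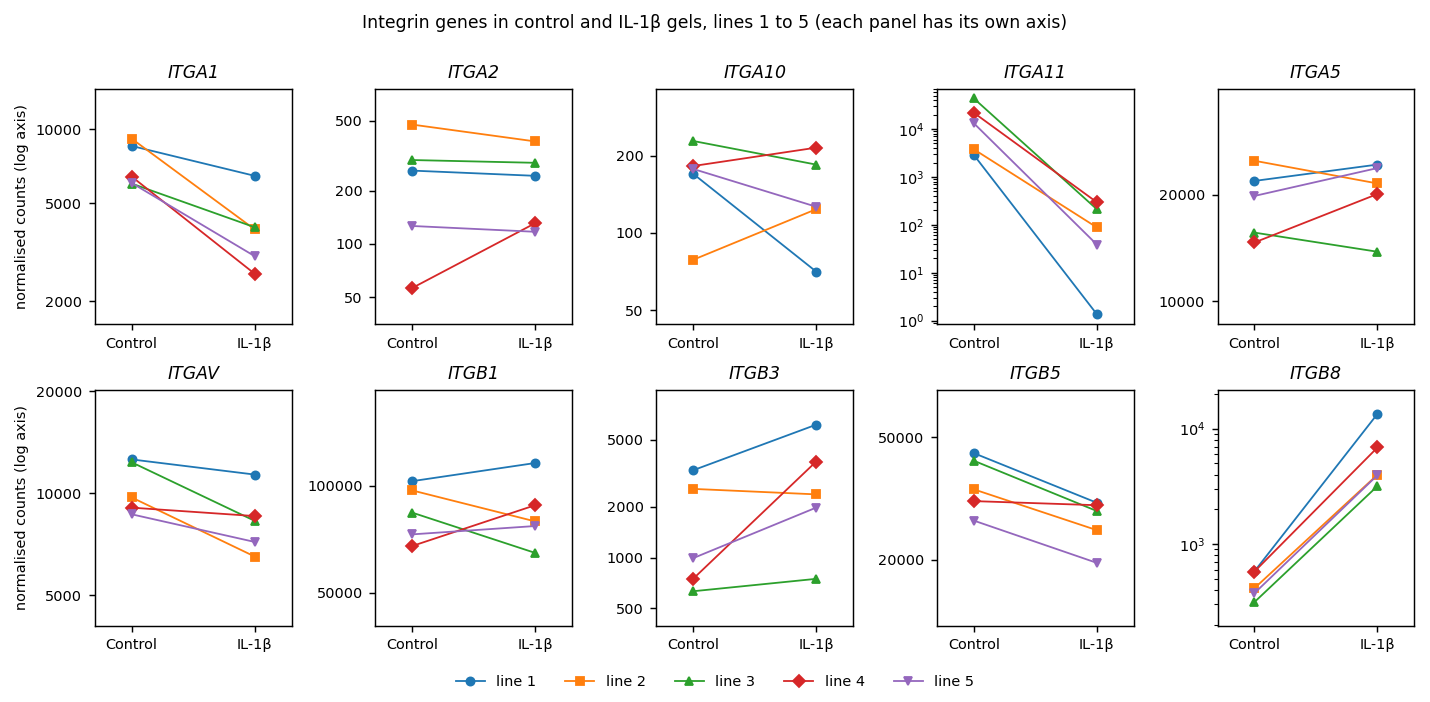
Normalised counts (log axis, with its own range in each panel) of the 10 integrin genes in control and IL-1β gels of lines 1 to 5. Each point is 1 library and each line joins the libraries of 1 donor. All 5 ITGA11 lines run down and all 5 ITGB8 lines run up with no overlap between conditions, while the ITGB1 and ITGA5 lines cross.

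The collagen-binding α subunits did not move together. ITGA11 pairs with ITGB1 to bind fibrillar collagen in fibroblasts. Its control levels were 2896, 3793, 43822, 21968 and 13281 normalised counts in lines 1 to 5. With IL-1β they were 1.36, 88.5, 212, 297 and 38.8 in the same order. The lowest control library lay above the highest IL-1β library, although controls differed among themselves by 15.1-fold. The log2-fold change was −7.59 ± 1.26 (SE, n = 5 lines, 95% interval −10.38 to −4.79, limma adjusted p = 0.00190). In lines 2 to 5 the level was 42.4-fold to 334-fold lower with IL-1β. The IL-1β library of line 1 held about the worth of 1 read (1.21 normalised counts there), and without line 1 the log2-fold change was −6.92 (adjusted p = 0.00103).

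ITGA1 encodes the α subunit of another collagen receptor, one that also binds basement membrane collagen. Its control levels were 8563, 9165, 6018, 6424 and 6052 normalised counts in lines 1 to 5, against 6469, 3915, 3995, 2582 and 3046 with IL-1β. Every line was lower with IL-1β, and only the IL-1β library of line 1 reached into the control range. The log2-fold change of −0.91 ± 0.23 (SE, n = 5, 95% interval −1.42 to −0.39) had an adjusted p of 0.0154 by limma, but it was under the fold threshold, so ITGA1 was not DE. Without line 1 it was −1.03 with an adjusted p of 0.00613 and passed both thresholds, whereas the adjusted p was 0.0635 without line 2 and 0.0575 without line 5. In the RefSeq annotation of another horse assembly, PELO lies inside the span of ITGA1, and how reads were divided between them was not tested.

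ITGA2 encodes the α subunit of a receptor for fibrillar collagen that is prominent on platelets and epithelium. Its levels were 260.2, 474, 299, 56.3 and 126 normalised counts in control and 243, 381, 288, 131 and 117 with IL-1β. The conditions overlapped almost completely: 4 lines were slightly lower with IL-1β and line 4, the lowest control, was higher. The log2-fold change was 0.13 ± 0.56 (SE, n = 5, adjusted p = 0.894 by limma), and it was −0.14 without line 4. ITGA10, best known from cartilage, had 78.5 to 228 normalised counts in control and 70.7 to 215 with IL-1β, higher in 2 of 5 lines (log2-fold change −0.23 ± 0.36, adjusted p = 0.670). Leaving out line 1 turned its direction (0.024).

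ITGB1, the partner of all 4 collagen-binding α subunits and of ITGA5, had control levels of 103057, 97025, 84038, 67767 and 73044 normalised counts and IL-1β levels of 115905, 79393, 64750.0, 88252 and 77097.5. Line by line the difference went both ways, up in 3 lines and down in 2. Mean levels were 84986 ± 15096 in control and 85079 ± 19168 with IL-1β (SD, n = 5). The log2-fold change of −0.0074 ± 0.20 had a 95% interval of −0.44 to 0.43 (limma adjusted p = 0.983), so a change in ITGB1 beyond that interval was not seen at this number of lines, and its sign turned when line 2 or line 3 was left out (0.063 and 0.085).

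Among the fibronectin and αV receptors, ITGB8 stood apart. Its product pairs with αV alone, and the pair binds latent TGF-β at the cell surface. In control it had 581, 415, 314, 578 and 376 normalised counts in lines 1 to 5, and with IL-1β 13434, 3997, 3185, 6872 and 3957. All IL-1β libraries were above all controls, and line 1 was the highest with IL-1β. The log2-fold change was 3.62 ± 0.36 (SE, n = 5, 95% interval 2.81 to 4.43, limma adjusted p = 0.000136), and the lines ran from 3.27 to 4.53. Of all genes tested, 19.5% had conditions that did not overlap (9.34% higher and 10.2% lower with IL-1β), as ITGB8 and ITGA11 did.

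ITGB3, whose product pairs with αV to bind vitronectin, fibronectin and osteopontin, varied widely between donors. Its control levels were 3301, 2560.5, 632, 749 and 994 normalised counts, and its IL-1β levels were 6153, 2376, 749, 3717 and 1982. Lines 1, 3, 4 and 5 were higher with IL-1β, line 4 by 4.96-fold, and line 2 was lower. Against this spread the log2-fold change was 0.87 ± 0.61 (SE, n = 5, 95% interval −0.48 to 2.22, limma adjusted p = 0.321). With donors matched the SE was 0.33 (95% interval 0.09 to 1.64) and the limma adjusted p 0.0701, so ITGB3 was not DE.

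ITGB5, another partner of αV, had 44439.5, 33893, 41986, 31029 and 26823.5 normalised counts in control and 30654, 24970.0, 28814, 30090.2 and 19547 with IL-1β. Each line was lower with IL-1β, by a log2 ratio of −0.04 in line 4 and −0.44 to −0.54 in the others. The conditions overlapped, and the log2-fold change was −0.40 ± 0.18 (SE, n = 5, 95% interval −0.79 to −0.01, limma adjusted p = 0.114). ITGAV itself was also lower in each line, at 8671 to 12593 normalised counts in control and 6506 to 11359.7 with IL-1β (log2-fold change −0.33 ± 0.16, 95% interval −0.69 to 0.03, adjusted p = 0.161). ITGA5, the α subunit of the classical fibronectin receptor, was higher in 3 of 5 lines, with 14667 to 24974 in control and 13809.9 to 24362 with IL-1β (log2-fold change 0.10 ± 0.19, adjusted p = 0.749). With donors matched (tenocyte line as a block), the adjusted p was 0.00372 for ITGA1, 0.0201 for ITGB5 and 0.0323 for ITGAV, and all 3 stayed under the fold threshold. In all, 4 integrin genes (ITGA1, ITGA11, ITGAV, ITGB5) were lower in 5 of 5 lines, a pattern seen in 25% of all genes tested, and ITGB8 was higher in 5 of 5, as were 24.8%.

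Summed markers of mural cells, tenocytes, chondrocytes and epithelium were lower with IL-1β in the same libraries, and leukocyte ranges overlapped. The summed level of 7 mural and smooth muscle markers was 43824 to 127662 normalised counts in control and 14265 to 34339 with IL-1β, with all 7 markers at 10 or more in every library. The summed level of 9 tenocyte markers found in the tables was 1054510 to 1820700 in control and 507175 to 939381 with IL-1β. For 6 chondrocyte markers it was 7427 to 42963 in control, mostly ACAN, and 100.0 to 1153 with IL-1β. Among these markers SOX9 was at 56.9 or more in every library and COL2A1 at or under 4.15. For 4 epithelial markers the summed level was 1415 to 3915 and 31.4 to 546, mostly CDH1, with EPCAM at or under 1.21. Leukocyte markers summed to 58.3 to 2079 in control and 312 to 3713 with IL-1β, carried by CD14 and CD68, with CD3E at 0. Their part in the integrin differences was not tested.

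In the second batch, IL-1β again raised ITGB8, the 1 integrin gene that was DE, and ITGA11 was again far lower in every line without passing the test. Lines 6 to 8 gave 57 DE genes of 16705 tested, or 0.341% (0.269% higher and 0.0718% lower), against 1 of 10 integrin genes. When donors were matched, 865 genes or 5.18% were DE (2.59% in each direction), and 2 integrin genes, ITGB8 higher and ITGA11 lower. Conditions did not overlap for 5 integrin genes (ITGB8 higher, ITGA1, ITGA2, ITGA11 and ITGB5 lower) and for 16.4% of all genes tested (8.82% higher, 7.61% lower). The median log2-fold change was −0.23 over the 10 genes and −0.0084 over all genes tested.

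With IL1Ra added, 0 integrin genes were DE against control or against IL-1β alone by limma, with or without the block. Against control, 2 of 16705 genes were DE in all (0.012%), or 42 with donors matched (0.251%), and 1 integrin gene, ITGB8, had an unadjusted p under 0.05, as had 948 genes in all (5.67%). Against IL-1β alone, 0 genes were DE (1 gene with donors matched, 0.00599%), 0 integrin genes and 464 genes in all (2.78%) had an unadjusted p under 0.05, and 0 integrin genes but 6.47% of all genes had conditions that did not overlap. The comparisons with control share the same 3 control libraries, and both use the same IL-1β or IL-1β + IL1Ra libraries as the comparison between treatments, so their values are set side by side only.

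**Figure D2:**
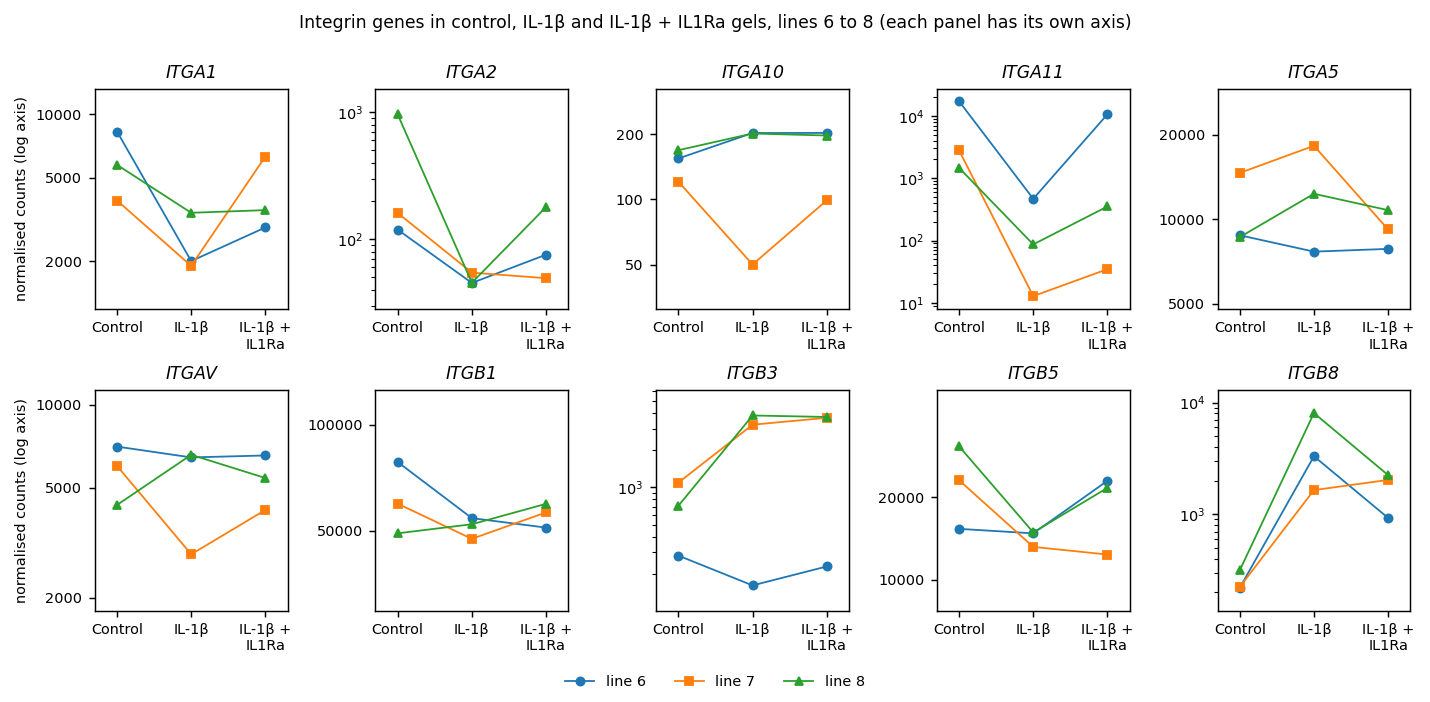
Normalised counts (log axis, with its own range in each panel) of the 10 integrin genes in control, IL-1β and IL-1β + IL1Ra gels of lines 6 to 8. Each point is 1 library and each line joins the libraries of 1 donor. ITGA11 dips with IL-1β in all 3 lines and lies nearest to control with IL1Ra in line 6, and ITGB8 stays above its control level in all 3 lines with IL1Ra.

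ITGA11 was the integrin gene with the widest spread between donors in control. In lines 6, 7 and 8 it had 17117, 2787 and 1462 normalised counts in control, 467, 12.8 and 86.6 with IL-1β, and 10601, 34.7 and 351 with IL-1β + IL1Ra. Each line was lowest with IL-1β and in between with IL1Ra, but line 6 with IL-1β + IL1Ra lay above the controls of lines 7 and 8. The log2-fold change with IL-1β was −5.64 ± 2.08 (SE, n = 3, 95% interval −10.41 to −0.86, limma adjusted p = 0.342), and with donors matched the SE was 0.95 and the adjusted p 0.0214, which made it DE. Against control, IL-1β + IL1Ra gave −3.01 ± 2.08 (adjusted p = 1.00, or 0.246 with donors matched). Against IL-1β alone it gave 2.63 ± 2.08 (95% interval −2.15 to 7.40, adjusted p = 1.00, or 0.496 with donors matched).

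How far ITGA11 returned towards control with IL1Ra differed by donor. In line 6 the log2 ratio to control was −5.19 with IL-1β and −0.69 with IL-1β + IL1Ra, so 13.3% of the difference was left. In line 8 the ratios were −4.06 and −2.05, leaving 50.6%, and in line 7 they were −7.66 and −6.29, leaving 82.1%. With 1 library per donor and condition, these differences between donors were not tested.

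ITGB8 had 219, 223 and 315 normalised counts in control, 3305, 1645 and 8046 with IL-1β, and 926, 2028 and 2239 with IL-1β + IL1Ra. Every treated library, with or without IL1Ra, was above all 3 controls. The log2-fold change with IL-1β was 3.82 ± 0.56 (SE, n = 3, 95% interval 2.52 to 5.11, limma adjusted p = 0.0431). With donors matched the limma adjusted p was 0.0065. The call without the block was lost when any of the 3 donors was left out. The adjusted p was then 0.0576 without line 6, 0.339 without line 7 and 0.599 without line 8, while the log2-fold change ran from 3.39 to 4.29. Without line 7, and again without line 8, 0 genes were DE over all genes tested, so no gene kept a call. Without line 6, 213 genes were DE higher and 151 lower of 16707. With IL-1β + IL1Ra the log2-fold change of ITGB8 was 2.69 ± 0.56 against control (95% interval 1.40 to 3.99, adjusted p = 0.382), where 11.8% of all genes (5.79% higher) had conditions that did not overlap. With donors matched the SE was 0.42 (95% interval 1.71 to 3.68) and the limma adjusted p 0.0667. Against IL-1β alone the log2-fold change of ITGB8 was −1.13 ± 0.56 (95% interval −2.42 to 0.17, adjusted p = 1.00), lower in lines 6 and 8 by 3.57-fold and 3.59-fold and higher in line 7 by 1.23-fold. With donors matched this interval was −2.11 to −0.14 and the limma adjusted p 0.516.

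ITGA2 had 119, 161 and 960.1 normalised counts in control, 45.3, 54.6 and 45.4 with IL-1β, and 75.6, 49.3 and 179 with IL-1β + IL1Ra in lines 6, 7 and 8. All 3 IL-1β libraries were below all controls and close to each other, and the control of line 8 was far above the others. The log2-fold change with IL-1β was −2.43 ± 0.79 (SE, n = 3, 95% interval −4.23 to −0.62, limma adjusted p = 0.280), and it was −1.46 without line 8. With donors matched the SE was 0.58 (95% interval −3.79 to −1.07) and the limma adjusted p 0.0553, so ITGA2 was not DE. With IL-1β + IL1Ra the log2-fold change was −1.58 ± 0.79 against control (adjusted p = 0.943) and 0.85 ± 0.79 against IL-1β alone (adjusted p = 1.00). In lines 1 to 5 the same gene had a log2-fold change of 0.13, and the difference between the batches was not tested.

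ITGA1 had 8281, 3895 and 5753 normalised counts in control, 2007, 1905 and 3405 with IL-1β, and 2901, 6301 and 3506 with IL-1β + IL1Ra. With IL1Ra, line 7 was above its own control, whereas lines 6 and 8 stayed below theirs. The log2-fold change was −1.28 ± 0.39 with IL-1β (SE, n = 3, 95% interval −2.17 to −0.38, limma adjusted p = 0.253), −0.51 ± 0.39 with IL-1β + IL1Ra (adjusted p = 1.00) and 0.77 ± 0.39 between the treatments (adjusted p = 1.00). ITGA10 had 121 to 169 in control, 50.2 to 202 with IL-1β and 99.1 to 202 with IL-1β + IL1Ra, and its log2-fold changes of −0.20, 0.11 and 0.31, each with an SE of 0.56, all turned sign when 1 donor was left out.

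The ITGB1 levels were 78301, 59602 and 49089.9 normalised counts in control, 54217, 47346 and 52097 with IL-1β, and 50959.9, 56299 and 59556 with IL-1β + IL1Ra. Lines 6 and 7 were lower with IL-1β and line 8 was slightly higher. The log2-fold changes were −0.26 ± 0.28 with IL-1β (95% interval −0.91 to 0.39, limma adjusted p = 0.836), −0.14 ± 0.28 with IL-1β + IL1Ra and 0.12 ± 0.28 between the treatments (adjusted p = 1.00 for both). Without line 6, the value of IL-1β + IL1Ra against control was 0.098.

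ITGB3 separated the donors. Line 6 had 280.1, 161 and 229 normalised counts in control, with IL-1β and with IL-1β + IL1Ra, whereas line 7 had 1095, 3228 and 3669 and line 8 had 710.5, 3833 and 3727. Lines 7 and 8 were higher in both treatments, and line 6 was lower in both. The log2-fold changes were 1.06 ± 1.45 with IL-1β (SE, n = 3, 95% interval −2.25 to 4.38, limma adjusted p = 0.876), 1.28 ± 1.45 with IL-1β + IL1Ra (adjusted p = 1.00) and 0.22 ± 1.45 between treatments (adjusted p = 1.00). With donors matched the SE was 0.55, and the limma adjusted p was 0.319 with IL-1β and 0.380 with IL-1β + IL1Ra. Without line 6, the IL-1β value was 1.99 ± 0.27 with an adjusted p of 0.0253, and ITGB3 was then the 1 integrin gene that was DE. In that fit, 213 genes were higher and 151 lower by the DE rule, of 16707 tested. With all 3 lines these were 45 and 12 of 16705.

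ITGB5 had 15351, 23078 and 30662 normalised counts in control, 14783, 13197 and 14902 with IL-1β, and 22971, 12377 and 21646 with IL-1β + IL1Ra. The IL-1β libraries lay just below the lowest control. Its log2-fold changes were −0.63 ± 0.33 with IL-1β (95% interval −1.39 to 0.12, limma adjusted p = 0.523), −0.27 ± 0.33 with IL-1β + IL1Ra and 0.36 ± 0.33 between treatments (adjusted p = 1.00 for both). ITGAV ran from 4333 to 7055 in control, 2870.2 to 6588 with IL-1β and 4156 to 6551 with IL-1β + IL1Ra, with log2-fold changes of −0.20, −0.10 and 0.09 (SE 0.36 each). ITGA5 ran from 8637 to 14633, 7665 to 18288 and 7840.5 to 10776, with log2-fold changes of 0.21, −0.17 and −0.38 (SE 0.35 each). Both genes overlapped in every comparison, and the sign of ITGAV turned in each when line 7 was left out.

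**Figure D3:**
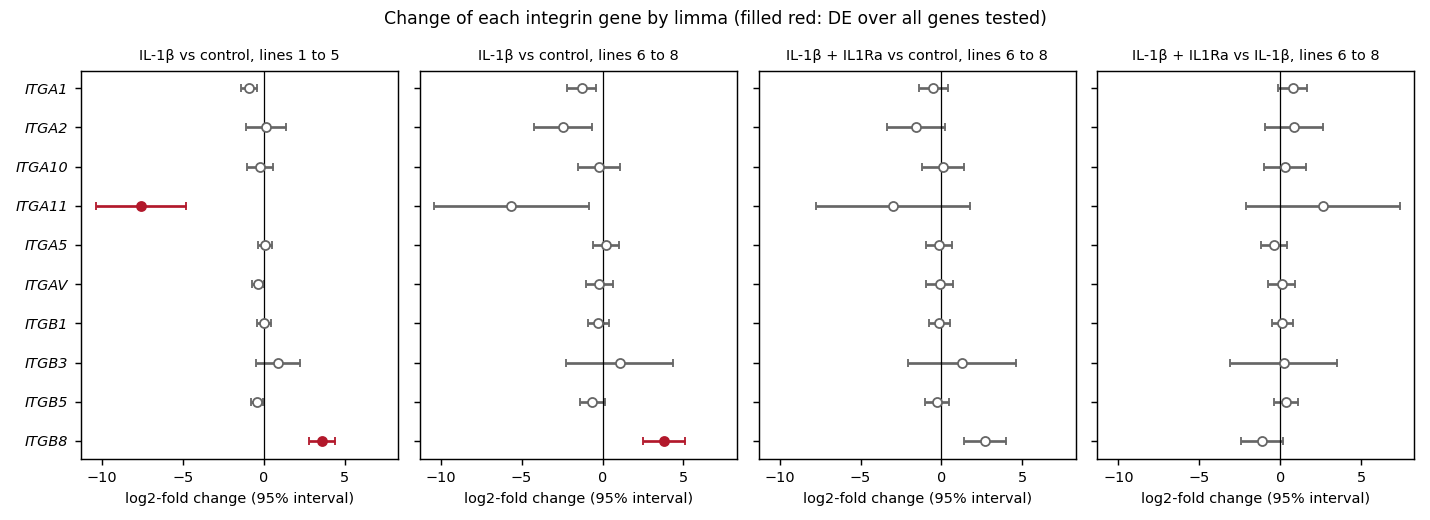
Log2-fold change of each integrin gene (horizontal axis, with 95% intervals by limma) in the 4 comparisons. Filled red points are DE over all genes tested, which are ITGA11 and ITGB8 in lines 1 to 5 and ITGB8 in lines 6 to 8, and the intervals for ITGA11 and ITGB3 are wider in lines 6 to 8 (SE 2.08 and 1.45) than in lines 1 to 5 (SE 1.26 and 0.61).

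Counted over donors, the IL-1β + IL1Ra library was closer to its own control than the IL-1β library was, on the log2 scale, in 3 of 3 lines for ITGA1, ITGA11 and ITGAV. It was closer in 2 of 3 for ITGA2, ITGA10, ITGA5, ITGB3 and ITGB8, and in 1 of 3 for ITGB1 and ITGB5. Such counts take no account of size, and they were not made over all genes. For ITGAV the log2 ratios with IL-1β were −0.13, −1.06 and 0.60 in lines 6, 7 and 8, without a shared direction. For ITGA1, 94.4% of the difference was left in line 8, and line 7 lay above its control. Marker sums for tenocytes and other cell types were also read in lines 6 to 8. Their ranges overlapped between conditions, except that chondrocyte and endothelial sums with IL-1β lay below control. Mural and smooth muscle markers summed to 10006 to 65417 normalised counts in control, 11132 to 24100.2 with IL-1β and 3482 to 26104 with IL-1β + IL1Ra. Tenocyte markers summed to 266596 to 850888, 376755 to 582450.0 and 153043 to 863115, and chondrocyte markers to 547 to 12928, 67.8 to 346 and 116 to 5816. Leukocyte markers summed to 230.3 to 1268, 672 to 3053 and 730.0 to 2055, carried by CD14 and CD68, with PTPRC at or under 6.46. Endothelial markers summed to 84.7 to 110.4, 55.7 to 84.3 and 53.4 to 239.9. Their part in these values was not tested.

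The spread between donors set apart some of the integrin genes even in control gels. In lines 1 to 5, the SD of log2 values in control was 1.67 for ITGA11, 1.19 for ITGA2 and 1.07 for ITGB3, against a median of 0.28 over all genes tested, which placed them at percentiles 97.4, 93.6 and 91.8. The SD was 0.25 for ITGAV, 0.26 for ITGB1, 0.29 for ITGA1 and 0.30 for ITGB5, between percentiles 44.9 and 52.7. In lines 6 to 8 the control SD was again highest for ITGA11 (1.84), ITGA2 (1.62) and ITGB3 (1.00), against a median of 0.37. In the fit without the block, the same 3 genes had the largest SEs of the log2-fold change with IL-1β, at 0.56 to 1.26 in lines 1 to 5 and 0.79 to 2.08 in lines 6 to 8. That SE is computed from the spread between lines, control libraries included, so it is not a separate observation. With donors matched in lines 1 to 5, the SE was 0.28 for ITGA10 and 0.24 for ITGA2.

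Correlations were ranked across the 10 libraries of the first batch, leaving out genes whose names start with LOC. The genes whose log2 values then followed ITGA11 most closely were CARNS1 (r = 0.993), OGN (r = 0.993) and FMNL2 (r = 0.989). In the 9 libraries of the second batch their correlations with ITGA11 were 0.899, 0.960 and 0.899. OGN encodes osteoglycin, a small leucine-rich proteoglycan of connective tissue. The libraries hold both conditions, so these values contain the shared difference between conditions (log2-fold change of −7.06 for OGN, −1.80 for CARNS1 and −1.45 for FMNL2 in the first batch). For ITGA2 the closest by the same rule were RBX1, EPGN and RPP25L, with r of 0.902, 0.902 and 0.898 in the first batch but −0.19, 0.20 and 0.08 in the second.

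**Figure D4:**
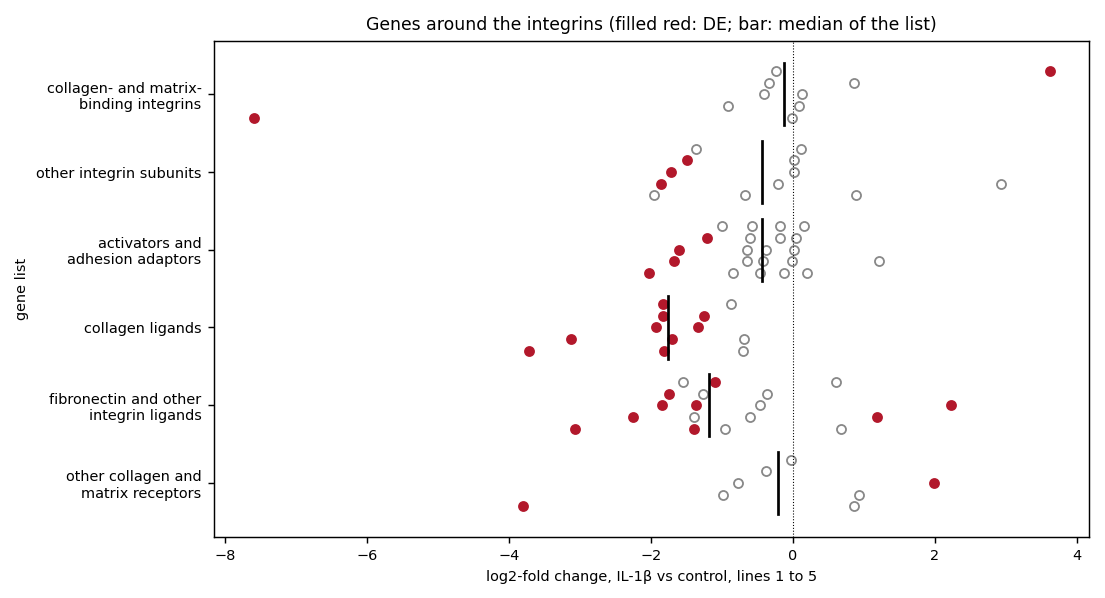
Log2-fold change with IL-1β in lines 1 to 5 (horizontal axis) for the 10 integrin genes and for 5 lists of genes around them, 1 point per gene tested. Filled red points are DE and the black bar is the median of each list, which lies at −1.76 for the collagen ligands and at −0.12 for the 10 integrin genes.

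Genes around these receptors were read from lists fixed by name. Of 16 other integrin subunits, 12 were tested in the first batch. ITGA6, a laminin receptor subunit, fell with IL-1β (log2-fold change −1.86 ± 0.34, n = 5, limma adjusted p = 0.00292), from 994 to 3065 normalised counts in control to 349 to 877. ITGA9 (−1.49, adjusted p = 0.00748) and ITGB7 (−1.71, adjusted p = 0.0179) fell too, and no gene of this list was DE higher without the block. The list median was −0.44. With donors matched 6 of the 12 were DE, against 16.2% of all genes tested, adding ITGA7 and ITGA8 as lower and ITGB6, whose product is another partner of αV that binds latent TGF-β, as higher. ITGB6 had 0.949 to 32.2 normalised counts in control and 6.36 to 187 with IL-1β, higher in 5 of 5 lines (2.94 ± 1.06, adjusted p = 0.0613, or 0.00458 with donors matched).

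Inside the cell, 22 integrin activators and adhesion adaptors were tested, and 4 fell in the first batch, where 7.9% of all genes tested fell. With donors matched 5 were DE, adding the kindlin gene FERMT1 as higher (log2-fold change 1.22, adjusted p = 0.0891, or 0.00562 with donors matched). The 4 that fell were the talin gene TLN2 (log2-fold change −2.02, limma adjusted p = 0.000712), the tensin genes TNS3 (−1.67, 0.00423) and TNS1 (−1.60, 0.00422), and LIMS2 (−1.21, 0.00198), a binding partner of integrin-linked kinase. The other talin gene, TLN1, had a log2-fold change of −0.18 ± 0.10 (adjusted p = 0.214). Vinculin (VCL), which links talin to actin, was lower in 5 of 5 lines with an adjusted p of 0.00116, but its log2-fold change of −0.85 was under the fold threshold. The list median was −0.44, against −0.0034 for all genes.

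Of the collagens that these receptors bind, 12 of 15 were tested in the first batch and 9 fell. All 12 had negative log2-fold changes, with a median of −1.76. The largest were for COL11A1 (−3.71 ± 0.54, n = 5, limma adjusted p = 0.000869), COL13A1 (−3.13, 0.00190), COL4A1 (−1.92, 0.00338) and COL1A1 (−1.83, 0.00588). COL2A1 and COL9A1 did not pass the filter, and COL3A1 was not found among the gene names.

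Among 18 fibronectin and other ligands tested, 7 fell and 2 rose in the first batch, with a median log2-fold change of −1.18. Those that fell included TNC (−3.07 ± 0.84, n = 5, limma adjusted p = 0.0207), THBS1 (−2.25, 0.00510) and CTGF (−1.85, 0.00199). EDIL3, an RGD protein that binds αV integrins, rose (2.23, 0.00558), and so did the laminin gene LAMA4 (1.18, 0.0418). Of 8 other collagen and matrix receptors tested, the proteoglycan genes SDC4 (2.00, adjusted p = 3.31e-05) and CSPG4 (−3.80, 0.00240) were DE. The collagen receptor kinases DDR1 and DDR2 had log2-fold changes of 0.93 (adjusted p = 0.00100, under the fold threshold) and −0.03 (adjusted p = 0.939).

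In lines 6 to 8, the mean differences of the same named genes had the same signs, and SDC4 alone among them passed the test. The second-batch log2-fold changes with IL-1β were −1.32 for ITGA6, −1.29 for ITGA9 and −1.20 for ITGB7. For the adaptors they were −1.44 for TLN2, −1.54 for TNS1, −0.60 for TNS3 and −0.60 for LIMS2. For the ligands they were −3.00 for COL11A1, −2.49 for COL13A1, −1.43 for COL4A1, −0.86 for COL1A1, −2.25 for TNC, −2.04 for THBS1, −1.54 for CTGF and 2.22 for EDIL3, and for CSPG4 −2.06. Their limma adjusted p ran from 0.0676 (TNC) to 0.853 (TNS3), with n = 3 lines.

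In the second batch, SDC4 was the 1 gene of these 5 lists that was DE with IL-1β (log2-fold change 2.27, n = 3, limma adjusted p = 0.0275). With donors matched, 11 of the 73 genes tested in these lists were DE, against 5.18% of all genes tested. ITGA6, PXN, TNS1, COL4A1, COL4A2, TNC, CYR61 and CSPG4 were lower, and EDIL3, DDR1 and SDC4 were higher. The collagen ligands again had 12 of 12 negative log2-fold changes, with a median of −0.98. With IL-1β + IL1Ra, 11 of 12 were negative against the same controls (median −0.70), and against the same IL-1β libraries the median was 0.32. Over all genes tested these medians were −0.0084, 0.0095 and 0.0088. In the comparisons with IL-1β + IL1Ra, 0 genes of the 5 lists were DE by limma with or without the block. Of the 73 tested, 6 genes against control and 4 against IL-1β alone had an unadjusted p under 0.05. Over all genes tested these shares were 5.67% and 2.78%.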

How the data were processed

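The deposited signal values are normalised counts: the authors assigned reads to horse transcripts with Salmon, summed them per gene and divided each batch by its own size factors with DESeq2 1.36 in R 4.2.1. Low values were only partly whole multiples of 1 read (64.0 to 77.3% within 0.1 read), so no count model was fitted. No 2 libraries held identical values, and 0 columns were unmapped.

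Here log2(normalised count + 1) was fitted with limma 3.58.1 (lmFit, eBayes with trend) in R 4.3.3, after tests on simulated data, with Benjamini-Hochberg adjustment over all genes tested. Genes needed 10 normalised counts in 5 libraries (first batch) or 3 (second batch, 3 conditions in 1 fit), which left 14719 and 16705. Fold changes are on that log2 scale and understate low genes.

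Libraries of 1 line come from 1 donor. Their deviations from condition means correlated at 0.35 to 0.58 (first batch, 5 pairs) and 0.54 to 0.79 (second, 9 pairs), and those of different lines at −0.36 to 0.29 and −0.62 to 0.25. No donor term is stated in the sources used here. The main fit had no block, and the line as a block was an alternative.

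Named genes are the 10 members, the up to 4 genes per list with the largest log2-fold change among those DE in the first batch, and the 3 genes most correlated with ITGA11 and with ITGA2. Genes whose names start with LOC were left out of those correlations. Genes DE only with the block, and ITGB6, TLN1, VCL, LAMA4, DDR1 and DDR2, were named after their values were seen. Members and lists were chosen with earlier results of these data known. RefSeq held all 10 symbols. Alternatives were pseudocounts, filters, scalings, the trend, the block and leaving out lines.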

Additional observations from a re-analysis of the deposited data

Results flagged for a closer look

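ITGA10 in the control gels of the first batch had 1 library far from the others. Line 2 had 78.5 normalised counts, against 169.9, 228, 182 and 177 in lines 1, 3, 4 and 5. On the log2(normalised count + 1) scale, the gap from line 2 to the nearest library was 0.724 of the whole range. That is above Dixon's 95% critical value of 0.71 for 5 libraries. The ratio holds for that log2 scale and not for the counts as printed. The 5-library groups of the 10 integrin genes gave 20 such tests, and chance marks about 1 in 20.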

How the results depend on the processing

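The ITGB8 and ITGA11 calls of the first batch held under all 13 alternatives, from 3.39 to 3.71 and from −8.13 to −6.92 on the log2 scale with a line left out. The number of integrin genes DE there was 2 to 3 with a line left out (3 without line 1). Over all genes, 546 to 677 were then DE higher and 828 to 1052 lower, of 14731 to 14789 tested. In the second batch, 1 integrin gene was DE with IL-1β, and the number was 0 with the same total per library, 0 without the trend, 0 with only the compared conditions fitted, 0 to 1 with a line left out, and 2 with the line as a replicate block. Over all genes in that batch, 35 were DE higher and 22 lower with the same total, of 16705 tested. Without the trend these were 26 and 8, and with only the compared conditions 28 and 6 of 15955. They were 213 and 151 without line 6, and 0 and 0 both without line 7 and without line 8. Scaling to the same total put the median of all genes at −0.19 in the second batch, against −0.0084 as deposited. The block raised the number of DE genes from 1885 to 2386 with IL-1β in the first batch, from 57 to 865 with IL-1β in the second, from 2 to 42 with IL-1β + IL1Ra against control, and from 0 to 1 between treatments, and it changed the call of no integrin gene other than ITGA11. The cause of these shifts was not tested.

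Signs turned only when a line was left out. In the first batch the log2-fold change then ran from −0.45 to 0.024 for ITGA10, from −0.10 to 0.085 for ITGB1 and from −0.14 to 0.24 for ITGA2. With IL-1β in the second batch it ran from −0.50 to 0.32 for ITGA10 and from −0.60 to 0.24 for ITGAV. With IL-1β + IL1Ra against control it ran from −0.030 to 0.31 for ITGA10, from −0.35 to 0.098 for ITGB1, from −0.42 to 0.079 for ITGA5, from −0.32 to 0.11 for ITGAV and from −0.70 to 0.040 for ITGB5. Between treatments it ran from −0.014 to 0.48 for ITGA10 and from −0.13 to 0.28 for ITGAV. The SE of the integrin genes ran from 0.16 to 1.26 in the first batch and from 0.28 to 2.08 in the second, which had lower sums per library and 3 donors in place of 5. Which of these sets the precision was not tested.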
